A study of Mus musculus with 55 samples.

Results

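Transcripts of 7 enzymes of phenylalanine and tyrosine breakdown were followed across the livers of 55 male mice. The genes were taken by name from a list of enzymes of the pathway: Qdpr, Pcbd1, Tat, Hpd, Hgd, Gstz1 and Fah. The list was chosen with earlier results of these data known, so the choice was not blind to their values. Among the 24475 genes counted they are 7, and all 7 were among the 13311 genes that passed the filter on low counts, which they passed in every group, with between 1801 and 161850 reads per library. Each library was the liver messenger RNA of 1 mouse, from stranded mRNA libraries amplified by PCR.

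The mice were of 2 strains. OTC mice (strain B6EiC3Sn a/A-Otcspf-ash/J) carry the spf-ash allele of Otc, the gene of the urea cycle enzyme ornithine transcarbamylase, and WT mice (B6EiC3SnF1/J) do not. Every mouse was injected intravenously at 4 months of age with an adeno-associated virus that delivered 1 of 3 hairpin RNAs, sh-Gls2 against Gls2, sh-Glud1 against Glud1, or a scrambled sequence (control). Gls2 encodes the liver glutaminase and Glud1 encodes glutamate dehydrogenase, 2 enzymes that release ammonia. All mice, controls included, were moved to a diet of 40% protein at week 2 and their livers were taken at week 5, so no library comes from an uninjected mouse or from a mouse on ordinary chow. The groups held 10 OTC sh-Gls2, 8 OTC sh-Glud1, 8 OTC control, 10 WT sh-Gls2, 9 WT sh-Glud1 and 10 WT control mice. The promoter that drove the hairpins is not given in the sources used here.

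The liver carries most of the breakdown of phenylalanine and tyrosine, and the pathway is used more when protein intake exceeds need. Phenylalanine is first hydroxylated to tyrosine with tetrahydrobiopterin as cofactor, which Pcbd1 (a carbinolamine dehydratase) and Qdpr (dihydropteridine reductase) regenerate after each turn. Tat (tyrosine aminotransferase) moves the amino group of tyrosine to ketoglutarate and so makes glutamate. Hpd (hydroxyphenylpyruvate dioxygenase) and Hgd (homogentisate dioxygenase) oxidise the remaining ring, Gstz1 (maleylacetoacetate isomerase, a zeta-class glutathione transferase) isomerises the opened ring, and Fah (fumarylacetoacetate hydrolase) splits it into fumarate and acetoacetate. Tat is also a textbook gene of the glucocorticoid and fasting response of the liver.

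The members lie apart on 6 chromosomes (GRCm38, GENCODE M21 annotation). Qdpr (ENSMUSG00000015806.12) lies on chromosome 5 from 45434021 to 45450236 on the minus strand, and Hpd (ENSMUSG00000029445.13) lies on the same chromosome from 123171807 to 123182727, also on the minus strand. Pcbd1 (ENSMUSG00000020098.7) lies on chromosome 10 from 61089331 to 61094324 on the plus strand. Tat (ENSMUSG00000001670.13) lies on chromosome 8 from 109990437 to 109999803 on the plus strand. Hgd (ENSMUSG00000022821.13) lies on chromosome 16 from 37580153 to 37632020 on the plus strand, and Gstz1 (ENSMUSG00000021033.11) on chromosome 12 from 87147165 to 87164723 on the plus strand. Fah (ENSMUSG00000030630.16) lies on chromosome 7 from 84585159 to 84606722 on the minus strand. Of the exon bases of Gstz1, 9.14% are shared with Pomt2 and 3.07% with Gm6566 on the opposite strand, and 18.6% of the exon bases of Qdpr are shared with Gm42413 on the opposite strand. Whether the authors' counting used strand is not given in the sources used here, so a part of these reads cannot be assigned with certainty.

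Promoter sequence is shown for the 3 members on which the results below turn: Tat, whose level varied most between mice in 5 of the 6 groups, Pcbd1, which fell under sh-Gls2 in both strains, and Gstz1, which also fell under sh-Gls2 in both strains and was lower in OTC than in WT mice under each vector. Each line is the 250 bases before the RefSeq transcription start on the plus strand of GRCm38.p6. The windows are chr8:109990186-109990435 for Tat, chr10:61089081-61089330 for Pcbd1 and chr12:87146915-87147164 for the upstream start of Gstz1. Capitals mark matches, on either strand, to the CCAAT box (CCAAT, or ATTGG on the other strand), the GC box (GGGCGG, or CCGCCC) and the TATA box (TATAAA, or TTTATA). The half-site TGTTCT of the glucocorticoid receptor (or AGAACA) was searched as well.
Tat: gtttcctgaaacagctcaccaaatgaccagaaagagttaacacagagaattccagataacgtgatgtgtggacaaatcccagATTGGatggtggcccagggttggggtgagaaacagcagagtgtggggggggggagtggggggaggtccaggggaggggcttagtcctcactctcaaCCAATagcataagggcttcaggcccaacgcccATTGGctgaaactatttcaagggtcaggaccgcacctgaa
Pcbd1: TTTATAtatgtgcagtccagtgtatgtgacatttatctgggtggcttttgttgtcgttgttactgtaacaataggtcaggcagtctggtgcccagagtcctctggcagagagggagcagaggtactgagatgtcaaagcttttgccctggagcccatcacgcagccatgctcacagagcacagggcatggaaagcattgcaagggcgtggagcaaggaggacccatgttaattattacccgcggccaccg
Gstz1: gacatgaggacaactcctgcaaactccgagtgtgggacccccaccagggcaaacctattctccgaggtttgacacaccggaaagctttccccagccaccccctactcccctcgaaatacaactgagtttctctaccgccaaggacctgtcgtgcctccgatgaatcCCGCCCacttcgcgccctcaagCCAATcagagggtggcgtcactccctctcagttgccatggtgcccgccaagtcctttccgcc
The Tat window held 3 CCAAT matches, whose first bases lie at -168, -72 and -40 from the start. The Pcbd1 window held a single match, TTTATA at its far end, at -250. The upstream Gstz1 window held a GC box match at -84 and a CCAAT match at -62. Of 32851 RefSeq promoter windows of the same length, 33.8% held CCAAT, 32.7% GGGCGG, 12.4% TATAAA and 16.1% TGTTCT. No TGTTCT was found in any of the 8 windows of the 7 genes. These are matches of letters only, and known control elements that lie farther from the start are outside the windows.

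On the deposited TPM scale, which is per transcript length and so allows genes to be compared, the members were among the abundant transcripts of these livers. Over the 55 libraries the mean TPM level was 2430 ± 503 for Hpd, 1334 ± 882 for Tat, 625 ± 90.0 for Gstz1, 613 ± 51.9 for Fah, 555 ± 106 for Hgd, 540 ± 83.0 for Qdpr and 325 ± 54.2 for Pcbd1 (SD, n = 55). Hpd ranked 52 and Pcbd1 ranked 362 among all genes by mean TPM. The summed TPM of the 7 genes lay between 5079 and 5986 in OTC sh-Gls2 livers, between 6067 and 11157 in OTC sh-Glud1 livers and between 5515 and 10813 in OTC control livers. It lay between 4880 and 6082 in WT sh-Gls2 livers, between 5141 and 7685 in WT sh-Glud1 livers and between 4837 and 6920 in WT control livers. All other levels below are TMM-normalized CPM (counts scaled to a common library size), which compare 1 gene across libraries.

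The libraries matched their labels in the targeted genes. Otc averaged 61.2 ± 11.7 CPM in OTC control livers and 522 ± 38.5 CPM in WT control livers (SD, n = 8 and 10). Gls2 averaged 198 ± 23.9 CPM in OTC sh-Gls2 livers and 439 ± 84.4 CPM in OTC control livers, and lay between 159 and 255 CPM in WT sh-Gls2 livers and between 339 and 578 CPM in WT control livers. Glud1 averaged 444 ± 105 CPM in OTC sh-Glud1 livers and 1068 ± 121 CPM in OTC control livers, and 386 ± 123 CPM in WT sh-Glud1 livers and 1035 ± 103 CPM in WT control livers. Total counts per library lay between 14489866 and 22781052. The OTC control libraries of mice 03 and 67 stood apart from the other 6 OTC controls, as described with Tat below, and results that changed without them are given both ways.

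**Figure D1:**
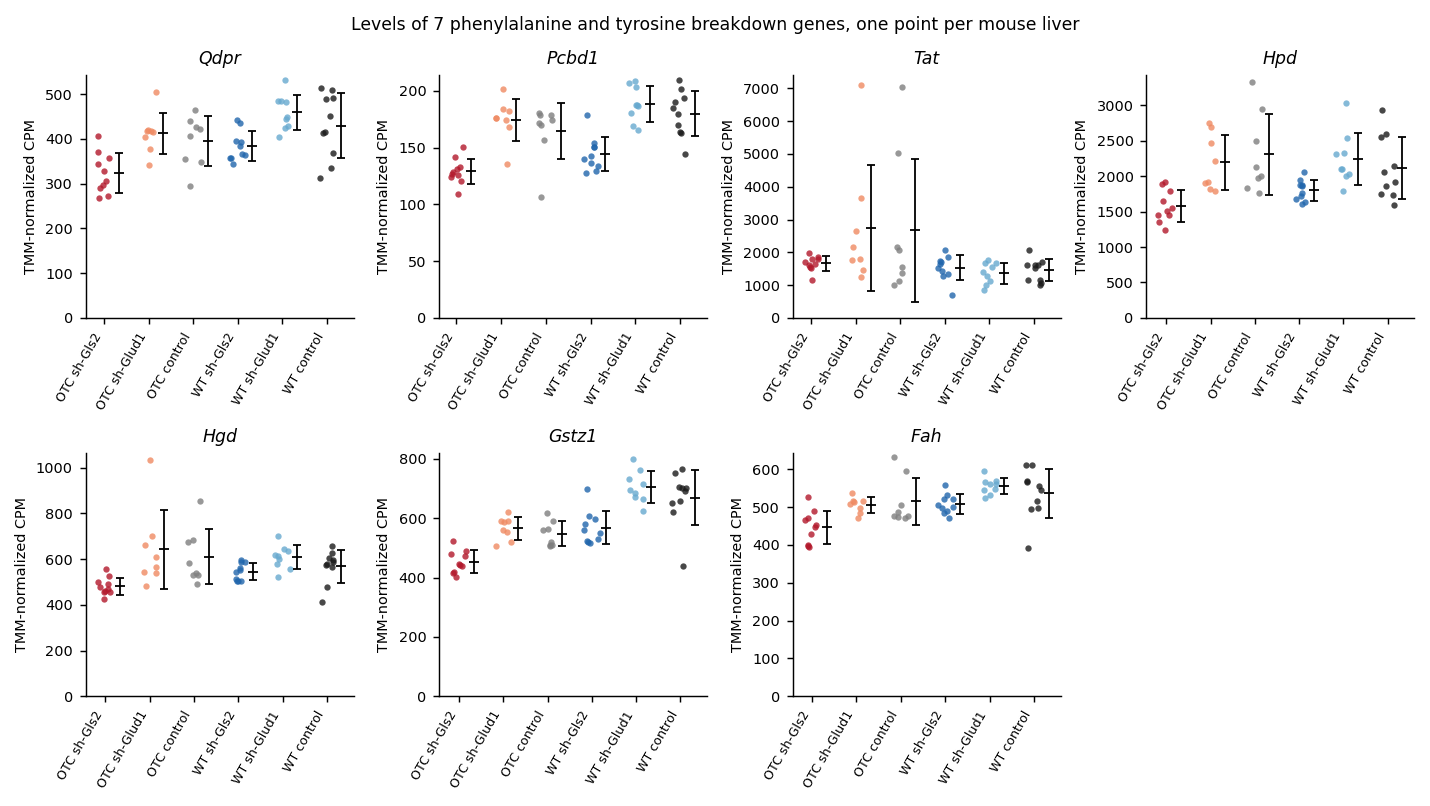
TMM-normalized CPM of each member in each of the 55 livers (y axis, starting at 0) by group (x axis); points are mice and the bars at their right show the mean and SD. The OTC sh-Gls2 livers have the lowest group mean of Qdpr, Pcbd1, Hpd, Hgd, Gstz1 and Fah, and 2 OTC control and 2 OTC sh-Glud1 livers stand high for Tat.

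In OTC mice, sh-Gls2 was followed by lower levels of the members: all 7 were lower in OTC sh-Gls2 than in OTC control livers at an adjusted p below 0.05 (edgeR quasi-likelihood test with Benjamini-Hochberg adjustment over 13311 genes), where 22.6% of all tested genes were called lower. The median log2 fold change of the 7 genes was -0.34, against -0.02 over all tested genes. The changes in group level lay between -13.2% for Fah and -37.5% for Tat. Without OTC control mice 03 and 67, 5 of the 7 members were lower at this threshold, all but Tat and Fah, where 2644 of 13396 tested genes were called lower. The log2 fold changes of the members other than Hpd that were called were then -0.37 for Qdpr, -0.44 for Pcbd1, -0.28 for Hgd and -0.26 for Gstz1 (adjusted p = 0.00106, 1.86e-06, 0.0199 and 0.00451).

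Both enzymes that regenerate the cofactor were lower. Pcbd1 lay between 110 and 151 CPM (median 128) in OTC sh-Gls2 livers and between 107 and 180 CPM (median 173) in OTC control livers. All 10 OTC sh-Gls2 livers were below the median of the OTC controls, and the ranges overlapped through a single OTC control, mouse 03, since the next lowest control had 157 CPM. The log2 fold change of Pcbd1 was -0.35 ± 0.08 (SE, adjusted p = 0.000185) with all libraries and -0.42 without mouse 03. Qdpr lay between 267 and 407 CPM (median 316) in OTC sh-Gls2 livers and between 296 and 464 CPM (median 414) in OTC control livers. Its log2 fold change was -0.29 ± 0.09 (adjusted p = 0.00665), with all 10 OTC sh-Gls2 livers below the median of the controls.

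Hpd and Hgd, the ring-oxidising enzymes, were lower as well. Hpd lay between 1238 and 1914 CPM (median 1531) in OTC sh-Gls2 livers and between 1760 and 3326 CPM (median 2059) in OTC control livers. Of the 10 OTC sh-Gls2 livers, 7 were below every OTC control. The log2 fold change was -0.54 ± 0.12 (adjusted p = 0.000132) with all libraries and -0.36 ± 0.11 (adjusted p = 0.00902) without mice 03 and 67. Hgd lay between 423 and 556 CPM (median 472) in OTC sh-Gls2 livers and between 492 and 853 CPM (median 560) in OTC control livers. Again 7 of 10 were below every control, and the log2 fold change of Hgd was -0.34 ± 0.10 (adjusted p = 0.00318).

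At the end of the pathway, Gstz1 and Fah were lower too. Gstz1 lay between 402 and 524 CPM (median 445) in OTC sh-Gls2 livers and between 507 and 618 CPM (median 541) in OTC control livers. Here 9 of the 10 OTC sh-Gls2 livers were below every OTC control, and the log2 fold change was -0.27 ± 0.07 (adjusted p = 0.00105). Fah lay between 394 and 526 CPM (median 450) in OTC sh-Gls2 livers and between 470 and 631 CPM (median 483) in OTC control livers. Its log2 fold change was -0.20 ± 0.06 (adjusted p = 0.00653) with all libraries and -0.11 ± 0.06 (adjusted p = 0.154) without mice 03 and 67, which held the highest Fah levels of their group, 631 and 596 CPM.

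For Tat, the first step of tyrosine breakdown, the call rested on single libraries. It lay between 1154 and 1978 CPM (median 1678) in OTC sh-Gls2 livers and between 997 and 7044 CPM (median 1818) in OTC control livers. Mouse 03 had 7044 CPM and mouse 67 had 5023 CPM, while the other 6 OTC controls overlapped the OTC sh-Gls2 livers. The log2 fold change of Tat was -0.68 ± 0.27 (adjusted p = 0.0388) with all libraries, -0.29 without mouse 03 (adjusted p = 0.375), -0.48 without mouse 67 (adjusted p = 0.155) and 0.11 ± 0.24 (adjusted p = 0.750) without mice 03 and 67. The call for Tat was also lost without OTC sh-Gls2 mouse 31, 49 or 74 (-0.62, -0.66 and -0.67), with DESeq2 (-0.67 ± 0.31, adjusted p = 0.0750), with the compared groups only (-0.67, adjusted p = 0.0980), without a filter on low counts (adjusted p = 0.0503) and on log2(TPM + 1), where the value was -0.30 (adjusted p = 0.389).

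**Figure D2:**
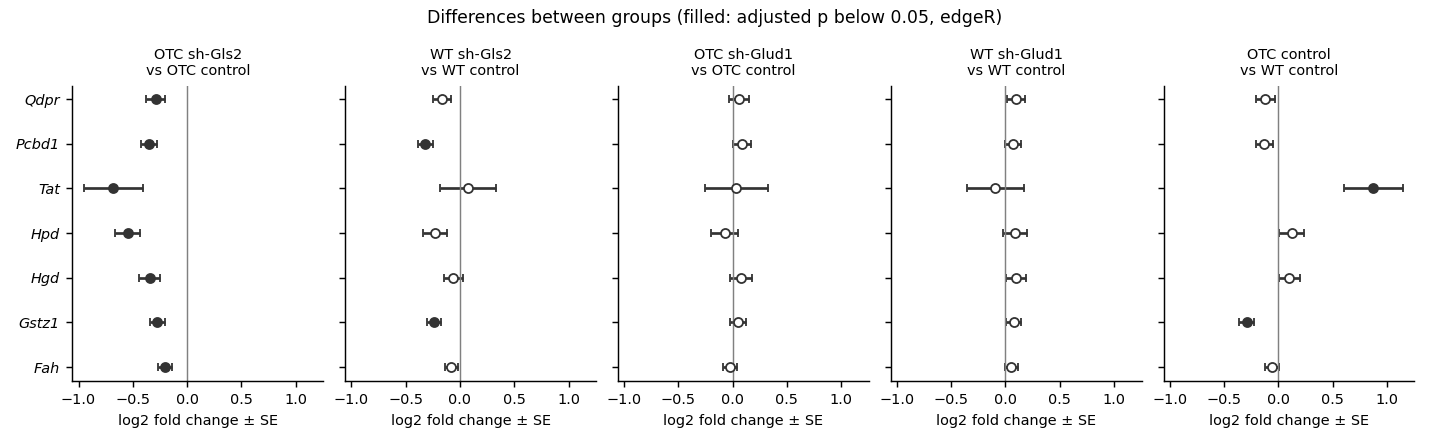
Log2 fold change with its SE (x axis) of each member (y axis) in 5 comparisons; filled points have an adjusted p below 0.05. In OTC sh-Gls2 against OTC control all 7 points are filled and negative, and in both sh-Glud1 panels no point is filled.

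In WT mice, sh-Gls2 was followed by lower Pcbd1 and Gstz1, and the other 5 members did not pass the test; 17.2% of all tested genes were called lower. Pcbd1 lay between 128 and 179 CPM (median 141) in WT sh-Gls2 livers and between 144 and 209 CPM (median 182) in WT control livers. All 10 WT sh-Gls2 livers were below the median of the WT controls, with a log2 fold change of -0.32 ± 0.07 (adjusted p = 0.000445). Gstz1 lay between 515 and 698 CPM (median 555) in WT sh-Gls2 livers and between 440 and 765 CPM (median 697) in WT control livers. Its log2 fold change was -0.24 ± 0.06 (adjusted p = 0.00327), with 9 of 10 WT sh-Gls2 livers below the median of the controls.

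The members that did not pass in WT mice differed in how near they came. Hpd lay between 1610 and 2061 CPM (median 1809) in WT sh-Gls2 livers and between 1592 and 2927 CPM (median 1987) in WT control livers, with a log2 fold change of -0.23 ± 0.11 (adjusted p = 0.0948). Qdpr had a log2 fold change of -0.16 ± 0.08 (adjusted p = 0.122). WT control mouse 07 was the lowest WT control for Qdpr, Pcbd1, Hpd, Hgd, Gstz1 and Fah, and without it Qdpr (-0.21, adjusted p = 0.0366) and Hpd (-0.27, adjusted p = 0.0445) passed the test, which made 4 members. The number of all genes called in either direction was 4818 without that mouse and 4638 with all libraries. The log2 fold changes of Hgd, Fah and Tat were -0.06 ± 0.09, -0.08 ± 0.06 and 0.07 ± 0.26. The 95% intervals reached down to -0.24 for Hgd, -0.19 for Fah and -0.43 for Tat, so falls up to these sizes cannot be told apart from no change.

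Although more members were called in OTC than in WT mice, the test of the strain difference in the sh-Gls2 effect called none of them. For the test of the sh-Gls2 effect in OTC minus that in WT, edgeR called 0 of the 7 members, DESeq2 called 0 and limma on TPM called 0, where edgeR called 0.338% of all tested genes. At an unadjusted p below 0.05 there were 2 members, of 1496 genes in all. The difference in log2 fold change was -0.28 ± 0.13 for Hgd (adjusted p = 0.415), -0.31 ± 0.16 for Hpd (adjusted p = 0.454) and -0.75 ± 0.37 for Tat (adjusted p = 0.444), with all libraries. The difference without mice 03 and 67 was -0.22 ± 0.13 for Hgd (adjusted p = 0.554), -0.13 ± 0.15 for Hpd (adjusted p = 0.818) and 0.04 ± 0.31 for Tat (adjusted p = 0.988). For Pcbd1 and Gstz1, lower in both strains, it was -0.03 ± 0.10 and -0.04 ± 0.09, with intervals from -0.24 to 0.17 and from -0.22 to 0.15.

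Knockdown of Glud1 was followed by no called change in any of the 7 genes. edgeR called 0 of 7 members between OTC sh-Glud1 and OTC control livers, where 0.015% of all genes were called, and 0 of 7 between WT sh-Glud1 and WT control livers, where 0.0225% were called. No member had an unadjusted p below 0.05 in either strain, while 639 and 697 genes in all did, and DESeq2 and limma on TPM called 0 members. In OTC mice the log2 fold changes lay between -0.07 for Hpd and 0.09 for Pcbd1, and in WT mice between -0.09 for Tat and 0.10 for Hgd. The intervals were narrow for Gstz1, from -0.09 to 0.19 in OTC mice and from -0.05 to 0.21 in WT mice, and wide for Tat, from -0.53 to 0.60 in OTC mice and from -0.61 to 0.43 in WT mice. The sh-Glud1 effect did not differ between the strains for any gene in edgeR (0 called, 417 at an unadjusted p below 0.05), in DESeq2 or in limma.

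Set against sh-Glud1, which shares the virus and differs in its target, sh-Gls2 was again followed by lower levels. Between OTC sh-Gls2 and OTC sh-Glud1 livers all 7 members were lower, where 21.1% of all genes were called lower. Pcbd1 fell by 0.44 on the log2 scale (SE 0.08, adjusted p = 7.71e-06), Gstz1 fell by 0.32 and Hgd fell by 0.42. Tat (-0.71 ± 0.27, adjusted p = 0.0314) again rested on single libraries: without OTC sh-Glud1 mouse 58 its log2 fold change was -0.34 (adjusted p = 0.303), and the call was also lost without OTC sh-Glud1 mouse 65 (-0.63) or OTC sh-Gls2 mouse 31 (-0.66). DESeq2 (-0.70, adjusted p = 0.0593) and log2(TPM + 1) (-0.51, adjusted p = 0.116) did not call it either. Between WT sh-Gls2 and WT sh-Glud1 livers 4 members were lower, where 14.2% of all genes were called lower. These were Qdpr (-0.26 ± 0.09), Pcbd1 (-0.38 ± 0.07), Hpd (-0.32 ± 0.11) and Gstz1 (-0.31 ± 0.07). The call for Hpd (adjusted p = 0.0261) was lost without WT sh-Glud1 mouse 32 (-0.26, adjusted p = 0.0810). Hgd (adjusted p = 0.207) and Fah (adjusted p = 0.0971) were not called in the main fit. A fit of the 2 groups alone called both lower, Hgd at -0.15 (adjusted p = 0.0260) and Fah at -0.13 (adjusted p = 0.0108). It called 2305 of 12603 tested genes lower. The comparisons with the control vector and with sh-Glud1 share the sh-Gls2 livers, so they are not independent of each other.

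**Figure D3:**
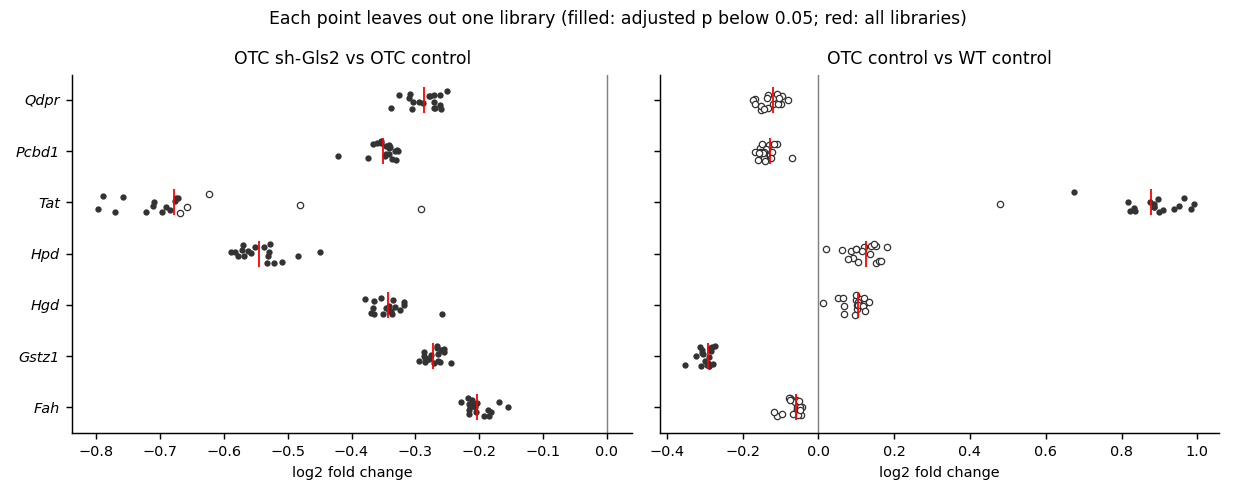
Log2 fold change (x axis) of each member (y axis) when each library of the 2 compared groups is left out in turn; filled points keep an adjusted p below 0.05, and the red bar is the value with all libraries. In OTC sh-Gls2 against OTC control, 6 members keep every call and Tat loses 5.

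Between strains under the control vector, Gstz1 was lower and Tat higher in OTC than in WT livers, where 16.4% of all genes were called lower and 19.9% higher. Gstz1 lay between 507 and 618 CPM (median 541) in OTC control livers and between 440 and 765 CPM (median 697) in WT control livers, with a log2 fold change of -0.29 ± 0.07 (adjusted p = 0.000791). All 8 OTC controls were below the median of the WT controls, and the ranges overlapped through WT control mouse 07 (440 CPM), since the next lowest WT control had 621 CPM. Tat lay between 997 and 7044 CPM (median 1818) in OTC control livers and between 1016 and 2074 CPM (median 1566) in WT control livers. Its log2 fold change was 0.88 ± 0.27 (adjusted p = 0.00923) with all libraries, 0.48 (adjusted p = 0.146) without mouse 03 and 0.08 ± 0.23 (adjusted p = 0.837) without mice 03 and 67, and it was not called in a fit of the 2 groups alone (0.87 ± 0.33, adjusted p = 0.0541). The other 5 members had log2 fold changes between -0.13 for Pcbd1 and 0.13 for Hpd, none of them called. Without mice 03 and 67 Hpd was at -0.07, and Fah was called lower (-0.16, adjusted p = 0.0373). The OTC control livers are those set against OTC sh-Gls2 above, so both comparisons move with them.

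The strain difference of Gstz1 recurred under both hairpins, in mice that the control comparison did not use. Gstz1 lay between 402 and 524 CPM (median 445) in OTC sh-Gls2 livers and between 515 and 698 CPM (median 555) in WT sh-Gls2 livers, with a log2 fold change of -0.33 ± 0.06 (adjusted p = 0.000141). It lay between 508 and 622 CPM (median 574) in OTC sh-Glud1 livers and between 626 and 800 CPM (median 694) in WT sh-Glud1 livers. These last ranges did not overlap, which held for 4.88% of all tested genes in that comparison, and the log2 fold change was -0.32 ± 0.07 (adjusted p = 0.000423). On log2(TPM + 1) the strain differences of Gstz1 were smaller, -0.18 ± 0.06 (adjusted p = 0.0156) under sh-Gls2, -0.15 ± 0.07 (adjusted p = 0.0612, not called) under sh-Glud1 and -0.17 ± 0.07 (adjusted p = 0.0343) under the control vector. On that scale the median of all genes itself moved, to 0.12, 0.15 and 0.10 in the same order, against 0.01, 0.02 and 0.02 in the counts. Between OTC control and WT control livers that scale called 3882 genes higher and 1129 lower, against 2650 and 2180 in the counts. Under sh-Gls2 it called 4247 higher and 749 lower, against 1935 and 1989, and under sh-Glud1 4862 higher and 822 lower, against 2650 and 2013.

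Under sh-Gls2, 3 members were lower in OTC than in WT livers, where 14.9% of all genes were called lower: Gstz1, Qdpr (-0.25 ± 0.08, adjusted p = 0.0207) and Fah (-0.18 ± 0.06, adjusted p = 0.0143). On the TPM scale Qdpr (-0.11, adjusted p = 0.291) and Fah (-0.05, adjusted p = 0.453) were not called. Pcbd1, not called with all libraries, was lower without OTC sh-Gls2 mouse 39 (-0.19, adjusted p = 0.0445). Under sh-Glud1, Gstz1 was lower and Tat higher in OTC than in WT livers, where 15.1% of all genes were called lower and 19.9% higher. Tat lay between 1257 and 7087 CPM (median 1979) in OTC sh-Glud1 livers and between 847 and 1777 CPM (median 1385) in WT sh-Glud1 livers. Its log2 fold change was 1.0 ± 0.28 (adjusted p = 0.00429), and 0.62 (adjusted p = 0.0635) without OTC sh-Glud1 mouse 58. Under sh-Gls2 the Tat ranges of the strains overlapped throughout, from 1154 to 1978 CPM in OTC livers and from 697 to 2060 CPM in WT livers, with a log2 fold change of 0.12 ± 0.26.

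Among the members, Tat had the largest mouse-to-mouse spread in every group but OTC sh-Gls2. Its coefficient of variation was 13.7% in OTC sh-Gls2 livers, 70.3% in OTC sh-Glud1 livers, 81.9% in OTC control livers, 24.6% in WT sh-Gls2 livers, 23.9% in WT sh-Glud1 livers and 23.5% in WT control livers. In OTC control livers it was 31.2% without mice 03 and 67, and in OTC sh-Glud1 livers it was 38.9% without mouse 58 and 26.8% without mice 58 and 65, choices made after the data were seen. In OTC control livers 97.8% of the 1300 genes with at least 100 CPM varied less than Tat, and 92.5% did without mice 03 and 67. In the other groups this share lay between 69.3% (OTC sh-Gls2) and 97.3% (OTC sh-Glud1), and it was 84.4% in WT control livers. The other 6 members had coefficients between 3.90% (Fah in WT sh-Glud1 livers) and 26.9% (Hgd in OTC sh-Glud1 livers). Hpd (14.4%) and Qdpr (14.1%) varied more than Tat in OTC sh-Gls2 livers, and Hpd was at 20.9% in WT control livers.

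The 4 highest Tat levels of the 55 livers were those of OTC sh-Glud1 mouse 58 (7087 CPM), OTC control mouse 03 (7044 CPM), OTC control mouse 67 (5023 CPM) and OTC sh-Glud1 mouse 65 (3655 CPM). The other 51 livers reached at most 2642 CPM, with a median of 1605 CPM. The same 4 livers also held the 4 highest levels of 5 of the 12 genes of the glucocorticoid and fasting list: Fkbp5 (a chaperone of the glucocorticoid receptor), Per1 (a clock gene), Pck1 (the rate-limiting enzyme of gluconeogenesis), Tdo2 (tryptophan dioxygenase) and Ppargc1a (a coactivator of gluconeogenic genes). The share of all tested genes with their 4 highest levels in these livers is not given here, so this count cannot be set against it. Fkbp5 had 435 CPM in mouse 03, 222 CPM in mouse 67, 196 CPM in mouse 58 and 124 CPM in mouse 65, against at most 99.9 CPM in the other 51. Nr3c1, which encodes the receptor itself, ranked between 27 and 55 in these 4 livers, Dusp1 (a phosphatase gene) ranked between 1 and 31, and G6pc (glucose-6-phosphatase) between 1 and 11. Of the other members, Hpd ranked 1, 3, 5 and 6 of 55 in them (between 2685 and 3326 CPM), whereas Pcbd1 ranked 55 of 55 in mouse 03 (107 CPM), 43 in mouse 58, 33 in mouse 67 and 29 in mouse 65. The part of these 4 livers in the Tat differences was not tested beyond leaving libraries out.

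**Figure D4:**
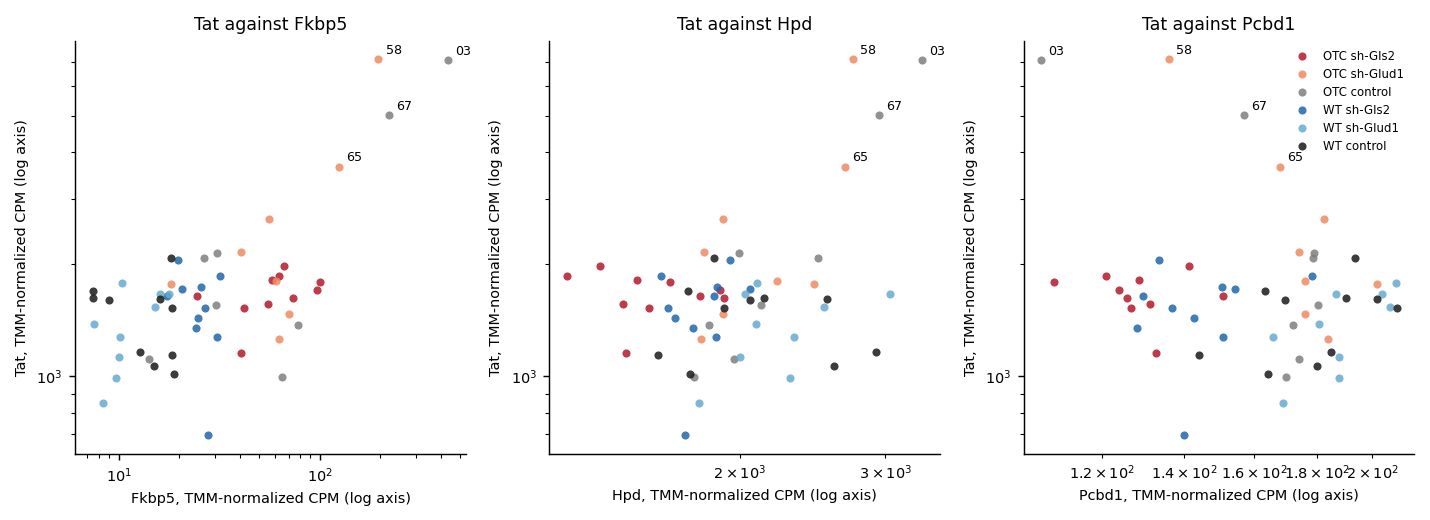
Tat (y axis) against Fkbp5, Hpd and Pcbd1 (x axes) in the 55 livers, all as TMM-normalized CPM on log axes and coloured by group; numbers mark OTC sh-Glud1 mice 58 and 65 and OTC control mice 03 and 67. The 4 marked livers are the highest for both Tat and Fkbp5, and mouse 03 is the lowest for Pcbd1.

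Genes around the pathway were counted in lists, whose counts under sh-Gls2 stand beside the shares of all tested genes: 20.2% called higher and 22.6% lower in OTC mice, and 17.6% higher and 17.2% lower in WT mice. Of 7 genes for the synthesis and handling of tetrahydrobiopterin, 2 were lower in OTC sh-Gls2 than in OTC control livers, Pts (-0.37 ± 0.07, an enzyme of its synthesis) and Pcbd2 (-0.39 ± 0.09, the paralogue of Pcbd1). In WT mice 3 were lower under sh-Gls2: Pcbd2 (-0.34 ± 0.09), Pts (-0.19 ± 0.07) and Dnajc12 (-0.51 ± 0.19, a co-chaperone of aromatic amino acid hydroxylases; not called on the TPM scale, adjusted p = 0.157). None of the list was higher in either strain. The medians of the list were -0.13 in OTC and -0.17 in WT mice.

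Of 11 tested enzymes that act on tyrosine, on its keto acids or on the end products, 6 were lower and 0 higher under sh-Gls2 in OTC mice, and 5 were lower and 0 higher in WT mice. Fahd1 (a mitochondrial acylpyruvate hydrolase of the Fah superfamily) fell by 0.53 on the log2 scale (SE 0.08) in OTC mice and fell by 0.44 (SE 0.08) in WT mice. Acat1 (mitochondrial thiolase of ketone body and isoleucine metabolism) fell by 0.61 (SE 0.10) in OTC mice and fell by 0.51 (SE 0.09) in WT mice; on the TPM scale its value in OTC mice was -0.39. In OTC mice Fh1 (fumarase, which takes up the fumarate) fell by 0.89 (SE 0.15). Got1 (cytosolic aspartate aminotransferase) fell by 1.42 (SE 0.33), but its log2 fold change was -0.26 ± 0.26 (adjusted p = 0.453) without mice 03 and 67. In WT mice Ddt (-0.19 ± 0.07, a tautomerase) was lower too. Il4i1, also listed, did not pass the filter.

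Transporters of aromatic amino acids moved in both directions under sh-Gls2. Of 6 genes, 3 were higher and 2 lower in OTC mice, and 3 were higher and 1 lower in WT mice; 1 or 2 of 6 is near the share of all genes called lower. Slc43a2 rose by 0.98 ± 0.15 on the log2 scale in OTC and by 0.84 ± 0.14 in WT mice, and Slc7a8 rose by 1.07 ± 0.17 in OTC and by 0.67 ± 0.16 in WT mice. Slc7a5, which exchanges large neutral amino acids, rose by 1.04 ± 0.20 in WT mice. Slc16a10, a transporter of aromatic amino acids, fell by 0.63 (SE 0.13) in OTC and fell by 0.52 (SE 0.13) in WT mice, and was at -0.42 in OTC mice without mice 03 and 67. Slc43a1 (-0.98 ± 0.26 in OTC mice) was at -0.24 ± 0.22 (adjusted p = 0.408) without mice 03 and 67.

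Of 32 enzymes that break down other amino acids, 2 were higher and 11 lower under sh-Gls2 in OTC mice, with a median of -0.14, and 2 were higher and 6 lower in WT mice, with a median of -0.12. Cbs (-0.63 ± 0.08 in OTC and -0.43 ± 0.07 in WT mice, transsulfuration), Amdhd1 (-0.70 ± 0.10 and -0.62 ± 0.10) and Ftcd (-0.49 ± 0.07 and -0.33 ± 0.07), both of histidine breakdown, were lower in both strains. Without mice 03 and 67 the count in OTC mice was 7 higher and 10 lower, with a median of 0.04, where 2510 of 13396 tested genes were called higher and 2644 lower. Whether the 7 members differ from these 32 genes was not tested.

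Among 10 hepatocyte transcription factors, 4 were lower and 0 higher in OTC sh-Gls2 livers, among them Foxa2 (-0.78 ± 0.17), Cebpa (-0.39 ± 0.11) and Foxa3 (-0.35 ± 0.14). Without mice 03 and 67 the count was 1 higher and 2 lower, where 2510 of 13396 tested genes were called higher and 2644 lower. Foxa3 (-0.35, adjusted p = 0.0626) was then not called. In WT sh-Gls2 livers Foxa2 (-0.80 ± 0.16) and Onecut1 (-1.21 ± 0.46) were lower. Foxa3 (adjusted p = 0.0690) and Onecut1 (0.0681) did not pass on the TPM scale. No gene of any of these lists was called between sh-Glud1 and control livers of either strain in edgeR.

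Between OTC control and WT control livers, 6 of 12 glucocorticoid and fasting genes were higher and 1 lower. The counts of this list and of those below stand beside 19.9% of all tested genes called higher and 16.4% lower. On the log2 scale Fkbp5 was higher by 2.99 ± 0.41, Zbtb16 (a transcriptional repressor) by 2.43 ± 0.36, Ppargc1a by 1.71 ± 0.27 and Pck1 by 1.42 ± 0.24. Without mice 03 and 67, 5 were higher and 2 lower, where 1873 of 13396 tested genes were called higher and 1989 lower. In that fit Fkbp5 (1.52 ± 0.31, adjusted p = 0.000199), Zbtb16 (1.53 ± 0.32, adjusted p = 0.000248), Ppargc1a (0.95 ± 0.23) and Pck1 (0.84 ± 0.22) were still called higher. Tat was not, but its levels are what set these mice apart, so leaving them out lowers its difference by that choice. Whether Tat differs from these genes was not tested. With all libraries Spr (0.38 ± 0.06) and Gch1 (0.29 ± 0.11) of the tetrahydrobiopterin list were higher and Pcbd2 (-0.29 ± 0.09) was lower. Of these, Gch1 was not called without mice 03 and 67 (adjusted p = 0.166), and on the TPM scale 4 genes of that list were higher and 0 lower. On that scale 3882 of 11310 tested genes were called higher and 1129 lower. Of the list on tyrosine and the end products 4 were higher and 3 lower, with Acat1 at -0.74 ± 0.10, Mif (a tautomerase) at 0.50 ± 0.08 and Got1 at 1.66 ± 0.33. Got1 was at 0.49 ± 0.26 (adjusted p = 0.151) without mice 03 and 67.

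Markers of other liver cells moved with sh-Gls2 beside the members, where 20.2% of all tested genes were called higher in OTC and 17.6% in WT mice. Of 9 macrophage markers, 8 were higher in OTC sh-Gls2 and 7 in WT sh-Gls2 livers than in their controls, and of 6 markers of dividing cells 5 and 6 were higher. The summed macrophage markers lay between 182 and 322 CPM in OTC sh-Gls2 and between 89.4 and 217 CPM in OTC control livers, and between 163 and 258 CPM in WT sh-Gls2 and between 115 and 192 CPM in WT control livers. The summed dividing-cell markers lay between 5.03 and 40.9 CPM in OTC sh-Gls2 and between 2.68 and 4.18 CPM in OTC control livers, and between 10.4 and 62.0 CPM in WT sh-Gls2 and between 2.53 and 7.90 CPM in WT control livers. Of 7 stellate cell markers, 4 were higher in OTC and 3 in WT sh-Gls2 livers, and of 7 endothelial markers 5 were higher in OTC and 1 in WT sh-Gls2 livers. Of 7 tested hepatocyte markers, 4 were lower in OTC and 1 in WT sh-Gls2 livers, where 22.6% and 17.2% of all genes were. The summed hepatocyte markers lay between 83933 and 112705 CPM (median 96681) in OTC sh-Gls2 livers. In OTC control livers they lay between 89269 and 134657 CPM (median 108913). In WT mice the sum lay between 84809 and 125233 CPM (median 118395) under sh-Gls2 and between 79724 and 126839 CPM (median 110782) in controls. The median was thus lower under sh-Gls2 in OTC mice and higher in WT mice. No marker was at 0 in any group. Of 6 bile duct markers 2, and of 7 lymphocyte markers 1, were higher under sh-Gls2 in each strain, shares closer to those of all genes. The part of these markers in the fall of the members was not tested, and in whole liver RNA fewer hepatocytes and less RNA per hepatocyte cannot be told apart. Between strains, 3 of 7 hepatocyte markers were lower and 0 higher in OTC sh-Gls2 than in WT sh-Gls2 livers. Of the other lists, 3 of 9 macrophage and 2 of 6 bile duct markers were higher, and 2 of 7 stellate cell markers were lower and 1 higher. In that comparison 14.5% of all genes were called higher and 14.9% lower. Between OTC sh-Glud1 and WT sh-Glud1 livers 3 hepatocyte markers were lower and 1 higher, 2 macrophage markers were higher and 3 of 6 dividing-cell markers were lower. Of 7 stellate cell markers 3 were lower and 1 higher, and 1 bile duct marker was higher. There 15.1% of all genes were called lower and 19.9% higher. Between OTC control and WT control livers 1 hepatocyte marker was lower and 1 higher, 0 macrophage markers were called and 3 dividing-cell markers were lower. Among the controls 2 stellate cell markers were lower and 1 higher, 1 endothelial marker was lower and 1 bile duct marker was higher. The shares of all genes there were 16.4% lower and 19.9% higher. The part of these markers in the strain differences of the members was not tested either.

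Within groups, most pairs of members varied together from mouse to mouse. After each group's mean log2 CPM was subtracted, 18 of the 21 pairs had a Pearson r above 0 over the 55 livers, with a median r of 0.39. Of the 21 pairs, 13 had an adjusted p below 0.05 for r and 15 for Spearman's rho (100000 permutations within groups, two-sided, Benjamini-Hochberg over 21). The closest pair was Qdpr and Pcbd1, the enzymes of cofactor regeneration, with r = 0.80 and rho = 0.78 (permutation p = 1e-05 for each, the smallest they can give; adjusted 5.25e-05 and 7e-05). Their r was 0.76 without the 2 libraries farthest from the median of Qdpr, and within single groups it lay between 0.62 and 0.91. Hpd and Fah had r = 0.68 and rho = 0.64 (permutation p = 1e-05 for each; adjusted 5.25e-05 and 7e-05), with r = 0.66 without the 2 farthest libraries. Depth and library preparation are shared by the genes of a library, and their part in these relations was not tested. Whether the members vary together more than other genes of these livers do was not tested either.

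Tat was less closely tied to the others. Its 6 pairs had a median r of 0.26, against 0.46 for the 15 pairs of the other genes. Tat and Hpd had r = 0.52 and rho = 0.38 (permutation p = 0.00049 and 0.00914; adjusted 0.00129 and 0.016), and 0.39 without the 2 libraries farthest from the median of Tat. Within OTC control livers Tat ran with Hpd (r = 0.95) and against Pcbd1 (r = -0.77), over 8 livers that include mice 03 and 67. Over single groups r of Tat and Hpd was -0.15 in WT control and -0.10 in OTC sh-Gls2 livers, and r of Tat and Pcbd1 was -0.83 in OTC sh-Glud1 and 0.66 in WT sh-Glud1 livers. Over all livers Pcbd1 and Tat had r = -0.35 and rho = -0.03 (permutation p = 0.0398 and 0.83; adjusted 0.0597 and 0.918), and 0.03 without the 2 farthest libraries, so the relation rests on those livers.

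**Figure D5:**
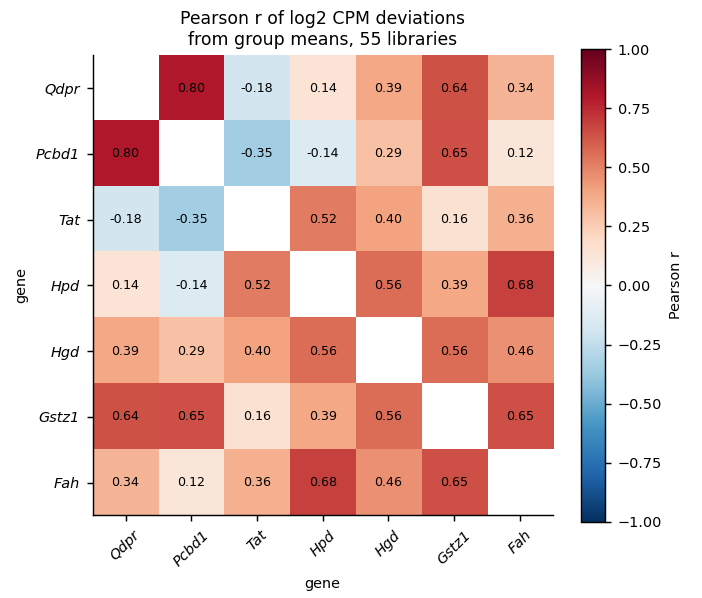
Pearson r between members (rows and columns are genes) of log2 CPM after each group's mean was subtracted, over 55 livers; colour runs from -1 to 1. Qdpr and Pcbd1 have the highest r, 0.80, and the 3 negative pairs are Qdpr with Tat, Pcbd1 with Tat and Pcbd1 with Hpd.

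The genes whose levels were most like each member's, by Pearson r of the same deviations among 13310 other genes, included no member among the 3 closest of each. Qdpr was most like Haao (r = 0.89), Pcbd1 most like Pebp1 (0.86), Gstz1 most like Nipsnap1 (0.86), Fah most like Ttc36 (0.85), Hgd most like Mrpl42 (0.81) and Hpd most like Gnmt (0.79). Tat was most like Slc25a51 (0.86), Ddit4 (0.85) and Sds (0.82). These values describe 55 livers and were picked as the highest of many.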

How the data were processed

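Stranded mRNA sequencing of liver was deposited for 55 mice in 6 groups. The authors deposited whole-number read counts per gene symbol, not normalized, and TPM values scaled to a fixed total per library. Per the submitters' processing notes, CASAVA 1.8.2, FastQC and the build GRCm38 were used; the aligner, counter and annotation are not given in the sources used here. Total counts lay between 14489866 and 22781052; PCR duplicates were not marked by molecular identifiers, so the spread between mice, not counting error, is the measure of error.

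Tests used edgeR 4.0.16 (R 4.3.3). filterByExpr (count threshold 10, total threshold 15) kept 13311 of 24475 genes, and TMM factors lay between 0.924 and 1.12. The 55 libraries shared a quasi-likelihood fit with a mean for each of the 6 groups; tests were two-sided, with Benjamini-Hochberg adjustment over all tested genes and a threshold of 0.05. The SE is the log2 fold change divided by the square root of F, and levels are CPM on TMM-scaled totals. Correlations were tested by permutation within groups. Alternatives were DESeq2 size factors, 2 other filters, DESeq2 1.42.0, the compared groups only, limma 3.58.1 on TPM as log2 with a pseudocount of 1 or 0.1 (genes averaging 1 TPM or more), and fits without chosen libraries and without each library in turn. The spread of Tat without single libraries was added after the data were seen.

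The members, gene lists and alternatives were chosen with earlier results of these data known. The genes named were the 7 members, Otc, Gls2 and Glud1, up to 4 genes of each list with the smallest adjusted p in a comparison, and the 3 genes most like each member, of which some are given. Some genes of the lists count in their list but are not reported here by name. Per1, Nr3c1, Dusp1 and G6pc were named after their values were seen. For the library whose column number matches no sample title, strain and vector were taken from the column name. Promoter windows came from RefSeq (GRCm38.p6) and held all 7 members.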

Additional observations from a re-analysis of the deposited data

Results flagged for a closer look

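In 42 sets (7 members in 6 groups), the highest or lowest liver was compared with its nearest neighbour by Dixon's criterion, which chance meets in about 1 in 20 sets. Pcbd1 was at 107 CPM in OTC control mouse 03, with the next lowest at 157 CPM. Tat was at 7087 CPM in OTC sh-Glud1 mouse 58, with the next highest at 3655 CPM. Hgd was at 1033 CPM in OTC sh-Glud1 mouse 65, with the next highest at 701 CPM. In WT sh-Gls2 mouse 45, Pcbd1 was at 179 CPM and Gstz1 at 698 CPM, with the next highest at 154 and 606 CPM. In WT control mouse 07, Gstz1 was at 440 CPM and Fah at 391 CPM, with the next lowest at 621 and 495 CPM. Of these livers, mouse 58, mouse 65 and mouse 03 are among the 4 with the highest Tat levels.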

How the results depend on the processing

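Over the 9 alternatives other than leaving out single libraries, 568 log2 fold changes of members kept their direction and side of the threshold, 19 lost the call, 13 gained it and 30 changed sign. The strain difference of the sh-Glud1 effect is not in these counts. The changes of sign were all at values not called with all libraries, except Tat in OTC sh-Gls2 against OTC control. The cause of these changes was not tested. No paired analysis was possible because mouse numbers are not shared between groups. The number of genes whose sh-Gls2 effect differed between strains, 45 with all libraries, was 24 without a filter, 19 with the compared groups only, 21 and 23 on TPM (pseudocounts 1 and 0.1), 84 with DESeq2, 10 without OTC control mice 03 and 67, 12 when WT control mouse 13 was left out as well, and between 15 and 64 with any library left out. With the compared groups only, 1 member was called between OTC control and WT control, where 3624 of 12638 tested genes were called. That setting called 5 members between OTC sh-Gls2 and WT sh-Gls2, where 4584 of 12740 genes were called, and 1 gene between OTC sh-Glud1 and OTC control. On TPM 1 member was called between OTC sh-Gls2 and WT sh-Gls2, where 4996 of 11310 genes were called with a pseudocount of 1. Without the 3 libraries 1 member was called between OTC control and WT control, where 3804 of 13392 genes were called. Leaving out any library gave between 1 and 2 members in that comparison, between 1 and 2 for OTC sh-Glud1 against WT sh-Glud1 and between 2 and 4 for WT sh-Gls2 against WT control. The genes called in all lay between 4001 and 4940, between 3881 and 4857, and between 4258 and 4818 in the same order.

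Signs changed as follows. On TPM (pseudocounts 1 and 0.1), Fah was at 0.052 and 0.052 for OTC control against WT control. For OTC sh-Glud1 against OTC control Hpd was at 0.00034 and 0.00035 and Fah at 0.041 and 0.041. For OTC sh-Glud1 against WT sh-Glud1 Qdpr was at 0.0056, Pcbd1 at 0.050, Hpd at 0.12 and Fah at 0.028, and Pcbd1 was at 0.011 for the strain difference of the sh-Gls2 effect. Without mice 03 and 67, and with mouse 13 left out too, Hpd was at -0.069 and -0.080 for OTC control against WT control, Tat at 0.11 and 0.11 for OTC sh-Gls2 against OTC control, and Tat at 0.036 and 0.035 for the strain difference. For OTC sh-Glud1 against OTC control Qdpr was then at -0.022 and -0.021, Pcbd1 at -0.0096 and -0.0080, Hpd at 0.11 and 0.11 and Fah at 0.069 and 0.071. With any library left out, OTC sh-Glud1 against OTC control lay between -0.042 and 0.022 for Fah, -0.058 and 0.16 for Hgd, -0.13 and 0.020 for Hpd, and -0.34 and 0.42 for Tat. OTC sh-Glud1 against WT sh-Glud1 lay between -0.059 and 0.12 for Hgd and -0.094 and 0.018 for Hpd, and the strain difference lay between -0.054 and 0.025 for Gstz1 and -0.10 and 0.0052 for Pcbd1. Without the 3 libraries, r was 0.40 for Qdpr with Hpd, 0.62 for Qdpr with Fah, -0.063 for Pcbd1 with Tat, 0.17 for Pcbd1 with Hpd, 0.50 for Pcbd1 with Fah and 0.076 for Tat with Fah. The number of mice, 8 to 10 a group, limits the precision, most of all for Tat.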
